A study of Mus musculus with 18 samples.

Results

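The proteasome genes are the genes whose symbol begins with Psma, Psmb, Psmc, Psmd, Psme or Psmg, each read from its brightest probe set that carries 1 gene symbol. The rule found 48 genes among 18194 named on the array, and 46 of them were bright enough to test, among 12579 tested. They comprise 8 alpha ring genes, 7 standard beta ring genes, 4 inducible or tissue-specific beta genes, 6 base ATPases, 3 other base subunits and 8 lid subunits. A further 10 encode assembly chaperones or activators, and Psmc3ip and Psme3ip1 match by prefix only and encode no subunit. The 2 genes set aside as dim were Psma8, the testis form of an alpha subunit, and Psmb11, the thymus form of a catalytic beta subunit. Psma8 lay between 4.40 and 5.36 and Psmb11 between 4.18 and 4.98 log2 units over the 18 arrays, around or below the array medians. Psme2 was read only on a probe set shared with Psme2b and was not analysed here.

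The proteasome degrades proteins tagged with ubiquitin. Its core is a barrel of stacked rings, with alpha subunits on the outside that gate entry and beta subunits on the inside that cut. The regulatory particle caps the barrel: its base unfolds substrates with a ring of ATPases, and its lid removes ubiquitin. Interferon induces 3 alternative catalytic beta subunits, which replace the standard ones and form the immunoproteasome that prepares peptides for MHC class I. When proteasome activity falls short, the transcription factor NRF1, encoded by Nfe2l1, raises the subunit genes together through antioxidant response elements, the same kind of sequence that NRF2 uses.

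Livers came from male mice 12 weeks old, kept on the test diets from week 4 to week 12. Knockout mice were Alb-Cre+/-/POR-lox+/+, in which an albumin promoter drives Cre in hepatocytes to delete P450 reductase, the electron donor of the microsomal P450s. Control mice were Alb-Cre-/-/POR-lox+/+, so both genotypes carry the floxed alleles and only the knockout carries Cre. Each genotype received lard, canola oil or a mixture of fish and fungal oils, with 3 arrays per group and a pool of RNA from 3 mice on each array. The fat content is 7% in the sample labels, while the series text gives another amount. Because the tissue is whole liver, fewer cells of a type and less RNA per cell cannot be told apart.

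Array medians lay between 5.229 and 5.286 log2 units, and arrays of a group correlated at 0.993 to 0.997. The probe table used here names no probe set for Por, so the deleted gene was not analysed here and the genotype labels were not set against it. Summed hepatocyte markers were high in every array (log2 16.65 to 16.77). Of 11 lymphocyte markers, 4 were below the array median in every array.

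Promoter sequence is shown for the genes the results turn on: Psmd8, the only proteasome gene past the threshold in any comparison, and Psmb8 and Psmb9, the inducible subunits with the most negative changes on fish/fungal oil against lard. Each is the 250 bases before the RefSeq start on build GRCm38.p6, written 5′ to 3′ on the gene's own strand, from chr7:29180674-29180923 (minus strand, Psmd8), chr17:34187331-34187580 (minus strand, Psmb9) and chr17:34197945-34198194 (plus strand, Psmb8). Capitals mark matches to 4 motifs searched on both strands.
Psmd8: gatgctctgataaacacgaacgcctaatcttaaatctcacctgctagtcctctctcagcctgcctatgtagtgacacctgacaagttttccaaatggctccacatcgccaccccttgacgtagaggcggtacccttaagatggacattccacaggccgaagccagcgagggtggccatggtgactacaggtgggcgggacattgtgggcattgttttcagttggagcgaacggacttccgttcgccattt
Psmb9: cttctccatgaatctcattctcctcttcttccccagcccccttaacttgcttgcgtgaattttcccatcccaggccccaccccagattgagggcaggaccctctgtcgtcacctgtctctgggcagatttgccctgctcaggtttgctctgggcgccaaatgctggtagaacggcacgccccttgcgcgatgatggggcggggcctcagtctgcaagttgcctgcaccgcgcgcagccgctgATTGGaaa
Psmb8: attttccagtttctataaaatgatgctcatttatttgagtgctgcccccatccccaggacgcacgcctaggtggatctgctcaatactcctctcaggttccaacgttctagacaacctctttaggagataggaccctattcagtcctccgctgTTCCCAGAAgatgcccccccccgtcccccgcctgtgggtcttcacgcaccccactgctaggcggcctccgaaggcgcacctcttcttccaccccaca

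The capitals in Psmb9 are a CCAAT box read on the opposite strand. Those in Psmb8 are a gamma-activated site (TTCNNNGAA), a sequence known from interferon gamma responses. Psmd8 held no match to these motifs, nor to the antioxidant response element (TGACNNNGC) or the interferon-stimulated response element (GAAA, any 2 bases, GAAA).

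RefSeq promoters were matched for 40 of the 48 genes, 43 promoters in all. The antioxidant response element was present in 5 of these 43 promoters (11.6%), those of Psmb5, Psmb6, Psmc6, Psmd12 and Psmd9, against 10.2% of all 32851 promoters of the same length. The CCAAT box was present in 16 of 43 (37.2%), against 33.8% of all promoters. The gamma-activated site occurred in 2 of 43 (4.65%; Psmb8 and Psmg1), against 7.02% of all promoters, and the interferon-stimulated element in 3 of 43 (6.98%; Psmb3, Psmd4 and Psmd9), against 2.98%. The Psmb9 start lies 226 bases from that of Tap1, the peptide transporter subunit read from the other strand, and the windows of both genes share 225 bases.

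In knockout livers the proteasome genes lay close to their levels in control livers. Averaged over the 3 diets, 1 of 46 was higher (Psmd8), against 3.82% of all genes tested, and 0 were lower, against 0.755% (limma, adjusted p under 0.05, 4.57% of all genes in either direction). Without adjustment 2 of the 46 had a p under 0.05, against 18% of all genes. The median log2 change of knockout over control was 0.01 for the 46 genes and 0.00 for all genes tested, and 24 of the 46 were positive. Single changes ran from -0.09 (Psmb9) to 0.23 (Psmd8).

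These values are narrow in their error. The 95% intervals of 38 of the 46 genes lay wholly within a log2 change of 0.25 in either direction, a 1.19-fold difference, and all 46 lay within 0.5, a 1.41-fold difference. The outermost bounds were -0.28 (Psmd14) and 0.33 (Psmd8). Averaged changes larger than 1.41-fold in knockout livers were therefore outside the interval of each of the 46 genes taken singly.

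**Figure D1:**
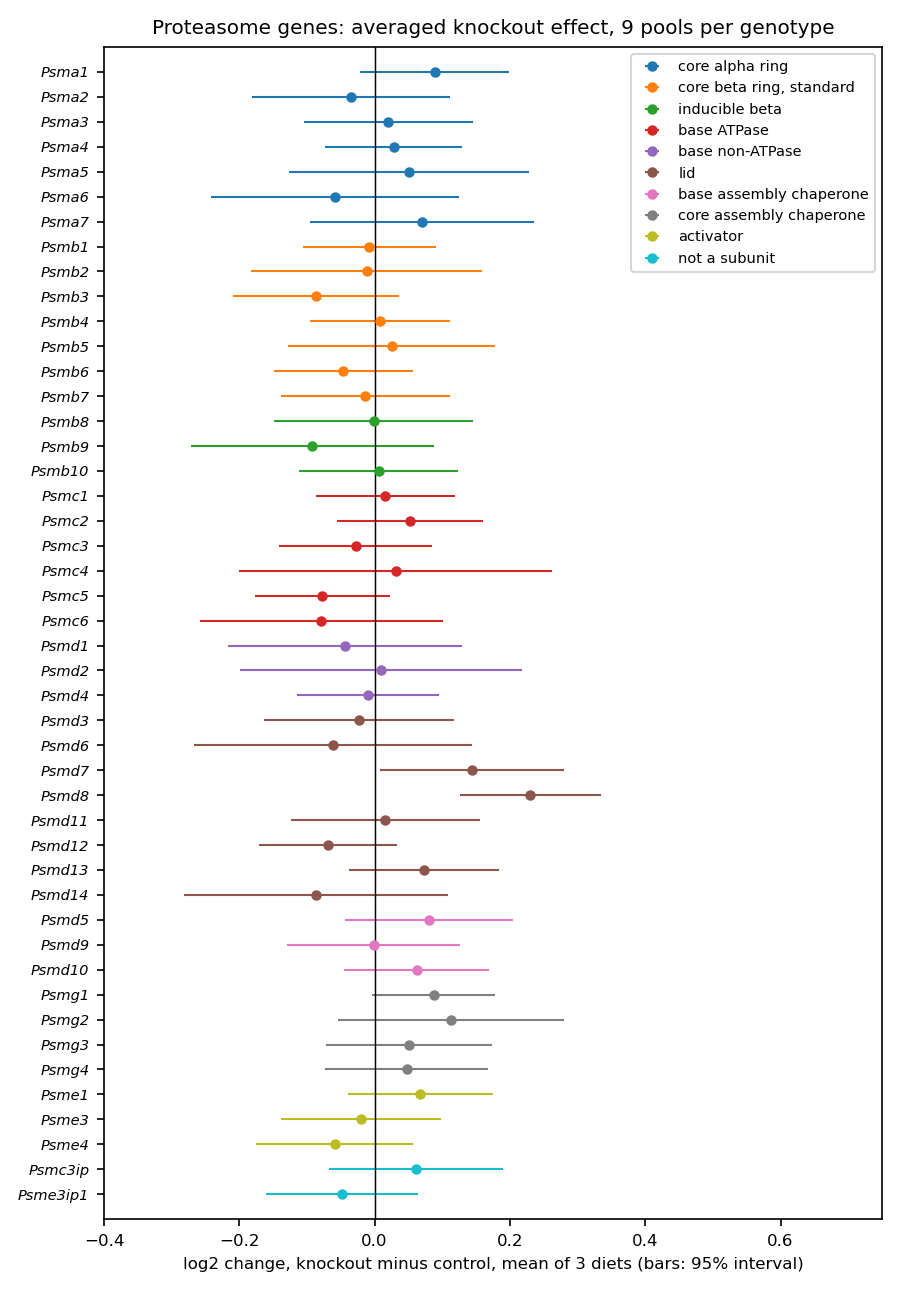
Log2 change of knockout over control, averaged over 3 diets, for the 46 proteasome genes tested (rows, coloured by class), with 95% intervals from limma. On the probe sets used, Psmd8 sits apart at 0.23, Psmd7 follows at 0.14, and the other genes lie between -0.09 and 0.11.

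Psmd8 encodes the lid subunit that is known from yeast as the last to join the lid. On lard it measured 11.53, 11.45 and 11.54 log2 units in knockout pools, against 11.20, 11.10 and 11.27 in control pools. On canola oil it measured 11.42, 11.35 and 11.53 in knockout pools, against 11.17, 11.17 and 11.35 in control pools. On fish/fungal oil it measured 11.32, 11.41 and 11.47 in knockout pools, against 11.11, 11.36 and 11.21 in control pools. The genotypes did not overlap on lard. On canola oil the lowest knockout and the highest control pool both rounded to 11.35, and on fish/fungal oil the genotypes overlapped.

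Averaged over diets, Psmd8 was 0.23 ± 0.05 log2 units higher in knockout livers (SE, 1.17-fold, adjusted p = 0.0116 by limma), in the same direction in 3 of 3 diets, with a 95% interval of 0.13 to 0.33. By p it ranked 201 and by size 436 among the 480 genes called higher. Within single diets it did not pass: the change was 0.31 on lard (adjusted p = 0.107), 0.20 on canola oil (adjusted p = 0.723) and 0.18 on fish/fungal oil (adjusted p = 0.662). Only 1 probe set on the array carries its symbol alone. The 5 tested neighbours on chromosome 7, Fam98c, Ggn, Catsperg1, Kcnk6 and Yif1b, had changes of -0.07 to 0.13, and none passed.

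The other 7 lid genes had averaged knockout changes between -0.09 (Psmd14, the deubiquitinase of the lid) and 0.14. Psmd7, the inactive partner of Psmd14 in the lid, had the second largest change, 0.14 ± 0.06 (SE), with an adjusted p of 0.248. Over all 3 diets its knockout pools had a lowest, median and highest value of 9.12, 9.27 and 9.38, against 8.76, 9.16 and 9.27 in control pools. The genotypes overlapped for Psmd7.

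The base of the regulatory particle showed no call in either direction, against 4.57% of all genes. Its 6 ATPases, which unfold the substrate, ran from -0.08 (Psmc6) to 0.05 (Psmc2) with a median of -0.01. The 3 other base subunits ran from -0.04 (Psmd1, a large scaffold) to 0.01 (Psmd2, the other scaffold). Their widest interval reached from -0.20 to 0.22 (Psmd2).

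In the core, 0 of 7 alpha genes and 0 of 7 standard beta genes passed, against 4.57% of all genes. At that share, 0 calls in so few genes say little. Alpha genes ran from -0.06 (Psma6) to 0.09 (Psma1), and standard beta genes from -0.09 (Psmb3, a structural beta subunit) to 0.03 (Psmb5). The 3 standard catalytic subunits had 95% intervals of -0.13 to 0.18 (Psmb5, which cuts after hydrophobic residues), -0.15 to 0.06 (Psmb6, after acidic residues) and -0.14 to 0.11 (Psmb7, after basic residues).

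For these 3 genes the pools overlapped widely. Psmb5 had a lowest, median and highest value of 10.82, 11.01 and 11.25 in the 9 knockout pools, against 10.82, 10.94 and 11.18 in the 9 control pools. Psmb6 had 10.69, 10.77 and 10.96 in knockout pools, against 10.76, 10.84 and 10.94 in control pools. Psmb7 had 11.85, 11.96 and 12.17 in knockout pools, against 11.79, 11.98 and 12.23 in control pools.

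Assembly chaperones had the highest class medians, without a call (4.57% of all genes were called). The 4 chaperones of the core, Psmg1 to Psmg4, which guide ring assembly and are absent from the finished particle, were all positive, with changes of 0.05 (Psmg4) to 0.11 (Psmg2). The smallest adjusted p among them was 0.308, for Psmg1. The 3 chaperones of the base had changes of 0.00 (Psmd9), 0.06 (Psmd10) and 0.08 (Psmd5). The activators, alternative caps of the core, ran from -0.06 (Psme4) to 0.07 (Psme1, a subunit of the interferon-inducible cap). Another bright probe set of Psme4 gave 0.17. The genes matched by prefix only had 0.06 (Psmc3ip) and -0.05 (Psme3ip1).

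Psmb8, Psmb9 and Psmb10 take the places of Psmb5, Psmb6 and Psmb7 in the immunoproteasome. They did not differ between genotypes beyond the spread of the pools. The averaged knockout change was 0.00 ± 0.07 for Psmb8, -0.09 ± 0.08 for Psmb9 and 0.01 ± 0.06 for Psmb10 (SE), with adjusted p of 0.995, 0.635 and 0.975 by limma. Their 95% intervals were -0.15 to 0.15, -0.27 to 0.09 and -0.11 to 0.12. Of 16 other interferon response genes tested, 6 were higher in knockout livers (3.82% of all genes) and 0 lower (0.755%). All 16 changes were positive, with a median of 0.27. Usp18, which removes the interferon-induced modifier ISG15, rose by 0.62 ± 0.08 (adjusted p = 0.000221), and Cxcl10, a chemokine, by 0.66 ± 0.13 (adjusted p = 0.00636). Oasl2 and Gbp3, further interferon-induced genes, rose by 0.51 and 0.40. The difference between these genes and the 3 subunits was not itself tested.

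Of 11 genes of MHC class I presentation, which receives the peptides, 1 was higher (3.82% of all genes) and 0 lower in knockout livers. The gene was H2-D1, a class I heavy chain, at 0.16 ± 0.04 (SE, adjusted p = 0.0384). Markers of immune cells moved in the same comparison: 4 of 10 macrophage markers (Cd68, Lyz2, C1qa, C1qb) and 3 of 6 class II and dendritic cell markers (Itgax, Cd74, H2-Eb1) were higher, and 1 of 7 lymphocyte markers (Ighm) was lower. None of 6 hepatocyte, 5 endothelial and 6 stellate markers passed. Summed hepatocyte markers were lower in knockout pools without overlap on lard (16.70 to 16.72 against 16.75 to 16.77). The same held on fish/fungal oil (16.65 to 16.70 against 16.71 to 16.73), with overlap on canola oil. Summed stellate markers were higher in knockout pools without overlap on lard alone (11.25 to 11.70 against 11.14 to 11.20). Summed endothelial markers overlapped on each diet. On lard the summed macrophage markers spanned 13.72 to 13.82 log2 units in knockout pools and 13.02 to 13.50 in control pools. On canola oil they spanned 13.15 to 13.58 in knockout pools and 12.85 to 13.36 in control pools, and on fish/fungal oil 13.32 to 14.07 in knockout pools and 13.49 to 13.61 in control pools. The summed class II and dendritic cell markers on lard spanned 11.51 to 11.86 in knockout pools and 11.06 to 11.26 in control pools. The genotypes overlapped in this sum on canola oil, at 11.09 to 11.97 in knockout and 10.78 to 11.32 in control pools. On fish/fungal oil they overlapped narrowly, at 10.990 to 11.83 in knockout and 10.89 to 10.992 in control pools. The part of these markers in the values of Psmb8, Psmb9 and Psmb10 was not tested.

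Other genes around the proteasome were read from lists. Of 17 NRF2 targets tested, 7 were higher in knockout livers (3.82% of all genes) and 0 lower (0.755%), with a median of 0.38. The glutathione transferases Gstm3 and Gstm1 rose by 3.04 and 0.62, and the epoxide hydrolase Ephx1 by 0.43. Whether NRF2 raised them was not tested. Among the 6 tested regulators of proteasome transcription 0 passed and all 6 were positive, with a median of 0.11; Mafg, a partner of NRF1 and NRF2, had 0.22 (adjusted p = 0.206). Of 7 ubiquitin and shuttle genes 1 was higher: Sqstm1, which carries ubiquitinated cargo to autophagy and is itself an NRF2 target, rose by 0.19 ± 0.04 (SE, adjusted p = 0.0137). Of 11 other proteasome parts and partners 0 passed, and Zfand2a, a stress-induced partner of the regulatory particle, had 0.22 (adjusted p = 0.141). Among 8 heat shock genes 1 was higher (Hspb1, 0.41, adjusted p = 0.0334).

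Within single diets 0 of 46 proteasome genes passed in knockout against control livers. The background was 0.986% of all genes on lard, 0.0636% on canola oil and 0.294% on fish/fungal oil. At an unadjusted p under 0.05 the counts were 2 of 46 on lard, 1 on canola oil and 0 on fish/fungal oil, against 10.5%, 6.14% and 7.62% of all genes. The median knockout change of the 46 genes was -0.01 on lard, 0.05 on canola oil (37 positive) and -0.03 on fish/fungal oil (15 positive).

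Pools did not overlap between genotypes, with knockout higher, for 3 of 46 genes on lard (Psmd8, Psmd10 and Psmg4), against 9.14% of all genes. On canola oil these were 5 of 46 (Psmc2, Psmd4, Psmd8, Psmd13 and Psmg1), against 7.04%, and on fish/fungal oil 1 of 46 (Psmg3), against 5.72%. Knockout was lower without overlap for 1 gene on lard (Psmc5, against 6.84% of all genes), for 0 on canola oil (4.24%) and for 1 on fish/fungal oil (Psmb3, 5.18%). The test of whether the knockout effect depends on diet called 0 proteasome genes and 0% of all genes. Unadjusted, 0 of the 46 had a p under 0.05, against 1.92% of all genes; the smallest p among them was 0.0503 for Psmc5, a base ATPase.

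The diets were compared next. With fish/fungal oil against lard, averaged over both genotypes, 0 of 46 proteasome genes passed, against 2.32% of all genes tested. At an unadjusted p under 0.05, 4 of 46 passed, all lower (Psmb9, Psmd9, Psmb8 and Psmd1), against 13.1% of all genes. The median change was -0.02 for the 46 genes and 0.00 for all genes. By class it was -0.20 for the 3 inducible subunits, 0.04 for the alpha ring and 0.02 for the standard beta ring.

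Psmb9 had the lowest change of the 46 genes. It measured 8.24, 8.34 and 8.32 log2 units in knockout pools on fish/fungal oil, against 8.79, 8.70 and 8.54 in knockout pools on lard. In control pools it measured 8.38, 8.83 and 8.23 on fish/fungal oil, against 9.02, 8.50 and 8.71 on lard. The diets did not overlap in knockout livers and overlapped in control livers, where 1 fish/fungal pool lay above 2 of the 3 lard pools. On canola oil Psmb9 measured 8.47, 8.65 and 8.82 in knockout pools and 8.69, 8.62 and 8.72 in control pools, near the lard levels.

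The averaged change of Psmb9 on fish/fungal oil against lard was -0.32 ± 0.10 (SE), with a 95% interval of -0.54 to -0.10 and an adjusted p of 0.151 by limma. It was -0.37 in knockout and -0.26 in control livers. Without the second control pool on fish/fungal oil, the one at 8.83, the averaged change was -0.41 and the adjusted p 0.0329, so that the call rests on whether this pool is included.

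Psmb8 measured 9.39, 9.35 and 9.28 in knockout pools on fish/fungal oil, against 9.61, 9.62 and 9.51 in knockout pools on lard, with no overlap. In control pools it measured 9.32, 9.57 and 9.27 on fish/fungal oil, against 9.67, 9.51 and 9.50 on lard, with overlap. Its averaged change was -0.20 ± 0.09 (SE, 95% interval -0.38 to -0.02, adjusted p = 0.304). On canola oil it measured 9.19, 9.43 and 9.58 in knockout pools and 9.51, 9.12 and 9.50 in control pools. Canola oil against lard gave -0.18 in each genotype, close to the change on fish/fungal oil.

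Psmb10 measured 9.53, 9.57 and 9.53 in knockout pools on fish/fungal oil, against 9.66, 9.73 and 9.49 in knockout pools on lard. In control pools it measured 9.50, 9.63 and 9.55 on fish/fungal oil, against 9.76, 9.64 and 9.64 on lard. The averaged change was -0.10 ± 0.07 (SE, 95% interval -0.24 to 0.04, adjusted p = 0.593). The diets did not overlap in control livers, where the nearest pools lay at 9.63 and 9.64, and overlapped in knockout livers. Canola oil against lard gave -0.22 in control livers, -0.07 in knockout livers and -0.14 over both, no smaller than the change on fish/fungal oil over both.

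**Figure D2:**
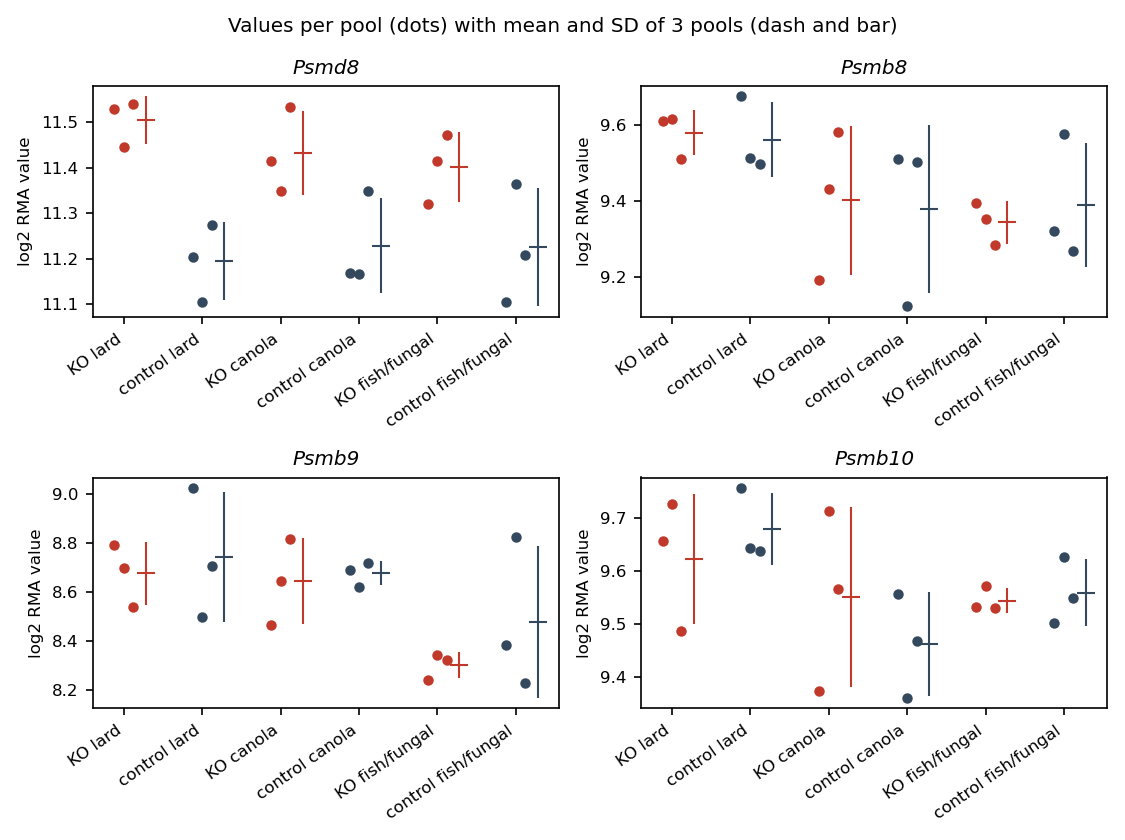
Log2 RMA values of Psmd8, Psmb8, Psmb9 and Psmb10 in each pool (dots, 3 per group), with mean and SD; knockout is left of control within each diet, and the y axes do not start at 0. Psmd8 was higher in knockout pools, and Psmb9 was lowest in the 3 knockout pools and 2 of the 3 control pools on fish/fungal oil.

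Beside the inducible subunits, H2-K1, a class I heavy chain, fell on fish/fungal oil by 0.31 ± 0.07 averaged over genotypes (SE, adjusted p = 0.0258), the only one of 11 class I presentation genes past the threshold. Tap1, next to Psmb9, had -0.13 (adjusted p = 0.644), and Tap2, next to Psmb8, had -0.21 ± 0.06 (SE, adjusted p = 0.110). Of 16 interferon response genes 0 passed; Irf9, a subunit of the interferon-activated factor, had -0.25 (adjusted p = 0.0508), Irgm1, an interferon-induced GTPase, had -0.28 (adjusted p = 0.0554), and the median was -0.21. None of the macrophage, lymphocyte, or class II and dendritic cell markers passed in this comparison. Their medians were 0.10, 0.02 and -0.22.

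The other subunits were flat on fish/fungal oil against lard, or lower without passing. Psmd9, a chaperone of the base, had -0.23 ± 0.07 (SE, adjusted p = 0.151). Psmd1 had -0.22 ± 0.10 (SE, adjusted p = 0.368). The standard catalytic subunits had 0.00 (Psmb5), 0.04 (Psmb6) and 0.02 (Psmb7), with 95% intervals of -0.19 to 0.18, -0.08 to 0.17 and -0.14 to 0.17. Of the 7 ubiquitin and shuttle genes 0 passed and all 7 changes were negative, with a median of -0.16; Ubqln1, a shuttle that carries ubiquitinated proteins to the proteasome, had -0.24 (adjusted p = 0.153). Of the 6 regulators of proteasome transcription 0 passed, and Nfe2l2, which encodes NRF2, had -0.20 (adjusted p = 0.337). Of the 11 other parts and partners and the 8 heat shock genes 0 passed, and of the 17 NRF2 targets 1 was higher (Ephx1, 0.50) and 1 lower (Me1, -1.98).

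Within genotypes, fish/fungal oil against lard also called 0 of 46 proteasome genes, against 0.461% of all genes in knockout and 0.715% in control livers. At an unadjusted p under 0.05 it took 1 of 46 in knockout livers (8.55% of all genes) and 1 in control livers (7.97%). Pools were lower on fish/fungal oil without overlap for 4 of 46 genes in knockout livers (Psmb8, Psmb9, Psmd9 and Psmd10; 6.14% of all genes) and for 4 in control livers (Psmb10, Psmd3, Psmd9 and Psmc3ip; 7.39%). They were higher without overlap for 0 genes in either genotype (4.81% and 6.20% of all genes). Psmd9 was in both lists.

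**Figure D3:**
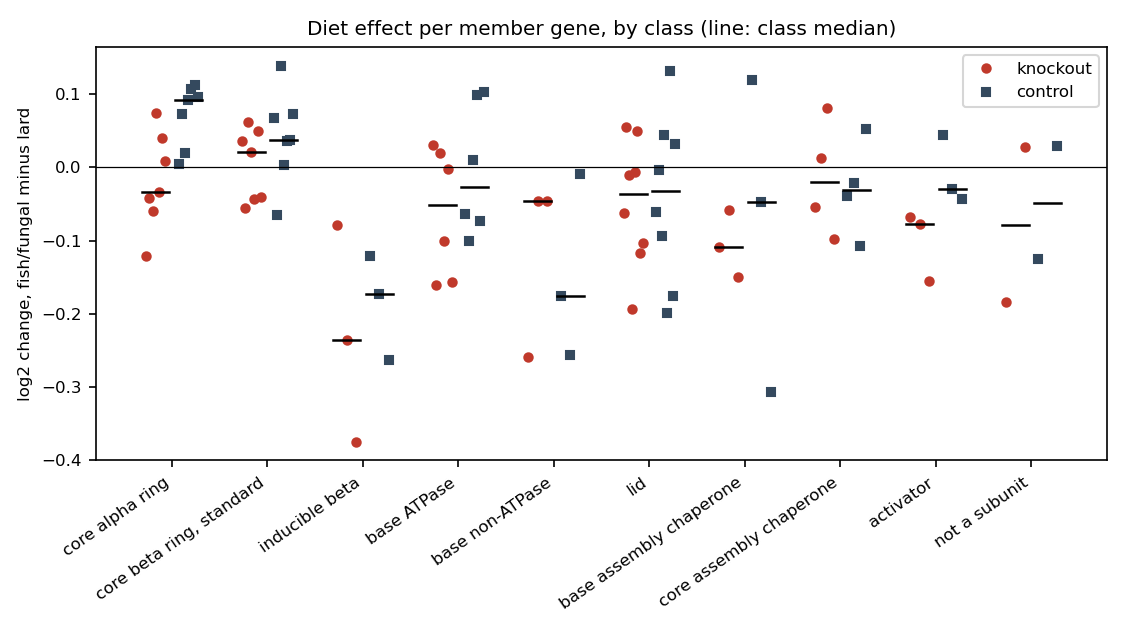
Log2 change on fish/fungal oil against lard for each proteasome gene (points) by class, in knockout (red circles) and control livers (dark squares), with the class median as a line. The 3 inducible beta genes lie below 0 in both genotypes, with Psmb9 in knockout livers lowest at -0.37.

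Against canola oil, fish/fungal oil called 0 of 46 proteasome genes in knockout livers, in control livers and over both, against 0.159%, 0.262% and 0.986% of all genes. At an unadjusted p under 0.05 it took 3 of 46 in knockout livers (5.92% of all genes), 1 in control livers (6.57%) and 2 over both (9.68%). Psmb9 had -0.34 in knockout and -0.20 in control livers in this comparison. Canola oil against lard called 0 of 46 and 0% of all genes in each of these 3 forms. At an unadjusted p under 0.05 it took 0 proteasome genes in knockout livers (4.83% of all genes), 2 in control livers (4.60%) and 2 over both (6.78%). Those 2 over both were Psmb8 and Psmb10, both lower on canola oil. There the median of the 3 inducible subunits was -0.14, against -0.01 for the 46 genes.

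The pools of a group differed little in these genes. The within-group SD had a median of 0.12 log2 units over the 46 genes (range 0.05 to 0.26), against 0.14 over all genes tested. Of the 46, 30 lay below that median. The comparison was not matched for brightness, so it shows nothing particular to these genes. What variation there was tended to run in opposite directions in most of the alpha ring and in part of the standard beta ring. Deviations of the 18 arrays from their group means are described here by Pearson's r, as a description without a test, since the genes share the arrays. Among the 7 alpha genes r had a median of 0.83 over 21 pairs, all positive (0.56 to 0.93). Among the 7 standard beta genes it was 0.70 (-0.33 to 0.92), and between alpha and standard beta genes it was -0.33 (-0.77 to 0.59). Psmb3, on the probe set used, was the exception in its ring: its r was 0.40 to 0.59 with the 7 alpha genes and -0.33 to 0.02 with the other beta genes. Correlations were not repeated on other probe sets, of which Psmb3 has a bright one. Without Psmb3 the median was 0.77 among beta genes and -0.39 between the rings (-0.77 to 0.20). With the 6 beta genes other than Psmb3, Psma1 had an r of -0.27 to 0.17 and Psma4 of -0.25 to 0.20, so neither ran clearly against them. Opposition was also weaker for Psmb6 and Psmb7, whose r with the 7 alpha genes was -0.41 to 0.20 and -0.46 to 0.19. Over all 1035 pairs of the 46 genes the median r was 0.17.

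**Figure D4:**
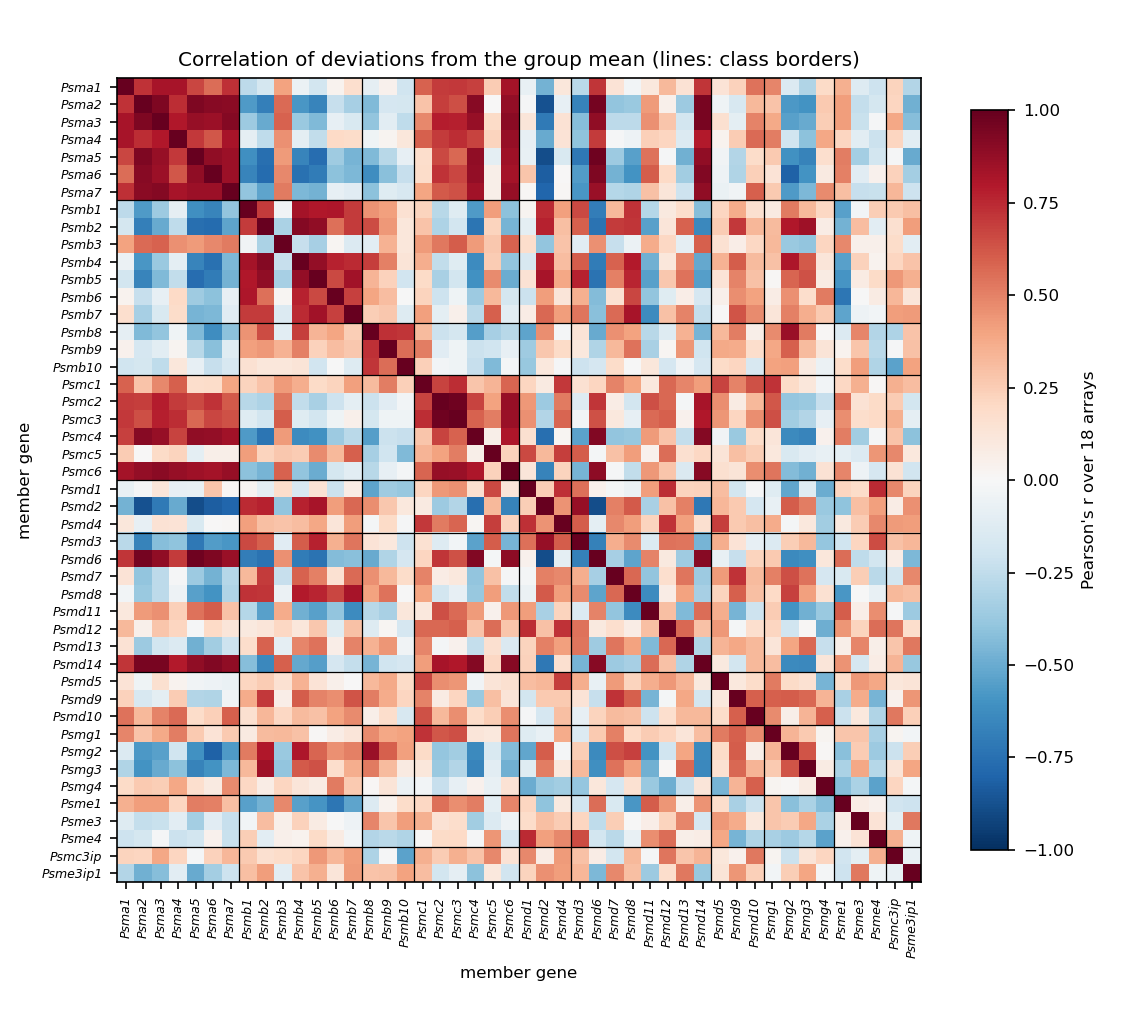
Pearson's r between the deviations of 46 proteasome genes from their group means over 18 arrays (colour, red positive and blue negative), with genes in the order of their classes and lines at class borders. Alpha genes form a red block with Psmc2, Psmc3, Psmc4, Psmc6, Psmd6 and Psmd14. Most standard beta genes, with Psmd2, form another that is mostly blue against the first.

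This split followed an axis that is not particular to the proteasome. The leading axis of the same deviations over the 12533 tested genes outside the set carried 25.3% of the variance between pools. Its sign is arbitrary and was set so that Psmd2 ran with it, so only which genes run together or apart is informative. All 7 alpha genes ran against it (r from -0.96 for Psma5 to -0.55 for Psma1), and 6 of 7 standard beta genes ran with it (0.45 for Psmb6 to 0.85 for Psmb5), with Psmb3 at -0.43. The regulatory particle divided in the same way: Psmd2 (0.95) and Psmd3 (0.81), a structural subunit of the lid, ran with the axis, while Psmd6 (-0.96), also structural, Psmd14 (-0.83), Psmc4 (-0.84) and Psmc6 (-0.80) ran against it. Psmd8 had 0.60. What sets the axis was not tested.

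**Figure D5:**
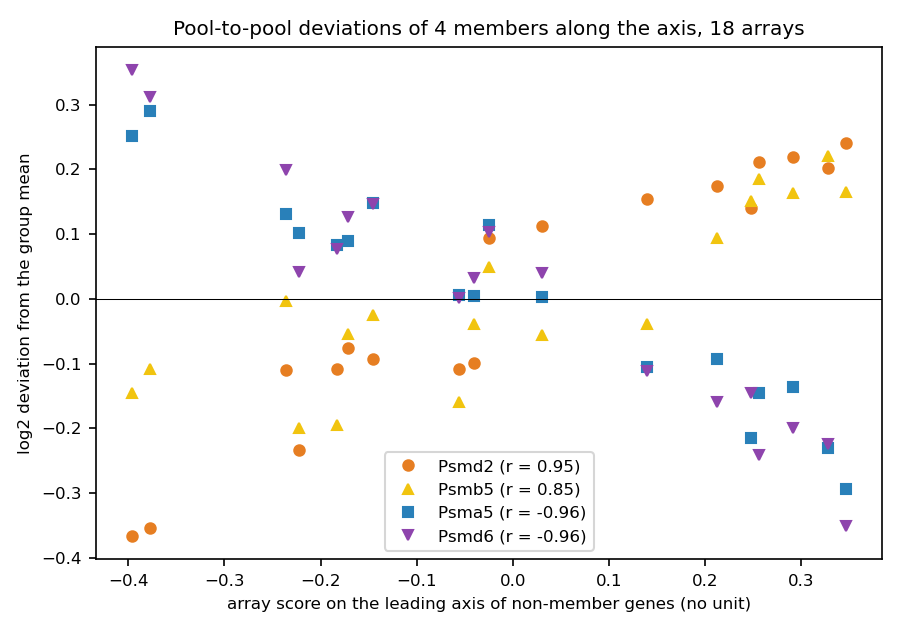
Deviation from the group mean (log2, y axis) of Psmd2, Psmb5, Psma5 and Psmd6 in the 18 arrays, against each array's score on the leading axis of the genes outside the set (x axis). Psmd2 and Psmb5 rise along the axis (r of 0.95 and 0.85), and Psma5 and Psmd6 fall (both -0.96).

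The inducible subunits had an r with this axis of 0.49 (Psmb8), 0.32 (Psmb9) and 0.06 (Psmb10). Among themselves their deviations correlated positively. Those of Psmb8 and Psmb9 correlated at r = 0.73 and rho = 0.75 (exact permutation within groups, p = 0.00131 and 0.00274), and r was 0.80 without the 2 arrays farthest from the median. For Psmb8 and Psmb10 r was 0.71 and rho 0.74 (exact permutation p = 0.0158 and 0.00639), with r 0.55 without 2 arrays. For Psmb9 and Psmb10 r was 0.56 and rho 0.65 (exact permutation p = 0.0211 and 0.0151), with r 0.52 without 2 arrays. Adjusted over these 3 pairs, the largest p was 0.0211 for r and 0.0151 for rho. The permutation does not account for variation that genes share through the arrays, so these p-values do not show regulation in common. Psmb8 also correlated with genes outside the trio, at 0.86 with Psmg2, 0.69 with Psmb4 and 0.65 with Psmb2, and nothing particular to the trio is read from these values.

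A measure of RNA quality moved with these genes. The gap between the array's 3′ and 5′ control probe sets for Actb lay between 0.54 and 1.08 log2 units over the 18 arrays, and its deviations correlated at -0.70 with Psmb8, -0.45 with Psmb9, -0.50 with Psmb10 and -0.83 with Psmg2. The gap for Gapdh gave -0.50, -0.26, -0.19 and -0.75 for the same genes. All 7 alpha genes were positive against the Actb gap, from 0.17 (Psma1) to 0.59 (Psma6). In knockout pools the Actb gap spanned 0.68 to 0.85 on fish/fungal oil, against 0.54 to 0.94 on lard. In control pools it spanned 0.71 to 1.04 on fish/fungal oil, against 0.67 to 0.90 on lard. On canola oil the Actb gap spanned 0.62 to 0.84 in knockout pools and 0.69 to 1.08 in control pools. The genotypes overlapped on each diet. The lowest gap was in a knockout pool on each diet, and the highest in a control pool on canola and fish/fungal oil. Psmd8 had an r of -0.43 with the Actb gap and -0.42 with the Gapdh gap. The part of RNA quality in the knockout change of Psmd8, in the diet values of the inducible subunits and in the axis was not tested.

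Other probe sets were set against the ones used, in the averaged knockout effect. Of the 48 genes 22 have 1 probe set. Among 28 other bright probe sets of the tested genes, 26 gave an averaged knockout change within 0.15 log2 units of the one used. The largest gap was 0.23, for Psme4, the nuclear activator, whose probe sets gave 0.17 and -0.06. The limit of 0.15 is wider than every averaged knockout change but that of Psmd8, so signs could differ within it. Psmc2 gave 0.05 on the probe set used and -0.07 on another. On fish/fungal oil against lard Psmd9 gave -0.23, and -0.10 on a dimmer probe set.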

How the data were processed

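Expression was measured on 18 Affymetrix Mouse Genome arrays, 3 in each of 6 groups of genotype and diet. The values deposited by the authors are on a log2 scale, read from their range (2.409 to 14.89), and come from RMA, per the submitters' processing notes; the software version is not given in the sources used here. Of 45101 probe sets, 34958 carried 1 gene symbol and 932 several; symbols were updated by gene ID to RefSeq GRCm38.p6. A gene was read from its probe set with the highest mean over the arrays and was tested where 3 or more arrays had it above their median.

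limma 3.58.1 (R 4.3.3) fitted the means of the 6 groups jointly, with an intensity trend. Two-sided p-values were adjusted over 12579 genes (Benjamini-Hochberg, threshold 0.05). Knockout effects were averaged over 3 diets and diet effects over 2 genotypes, each with equal weight. Errors of log2 changes are standard errors. No pair of arrays was identical. The pool is the replicate, so p-values measure the spread between pools, and the number of arrays limits the precision.

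Named are all genes past the threshold, Psmb5 to Psmb10, the lowest and highest of each class in the averaged knockout effect and the dim genes; others, such as Psmd7, Psmd9 and the genes on the axis, were chosen after their values were seen. From each list up to 4 genes past the threshold were taken, or up to 2 given as values. The members and lists were chosen with earlier results of these data known. Within-group permutations of the 3 pairs of inducible subunits enumerated 46656 arrangements. Promoters are RefSeq's. Alternatives were other normalization, centring, filters, probe set choices, no trend, array weights, only the groups compared, a block on the replicate number and fits without single arrays. Same-numbered pools of different groups did not deviate together: in 45 pairs r had a median of -0.01, from -0.40 to 0.46, so the numbers were not taken as pairs. The scripts were tested on simulated data.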

Additional observations from a re-analysis of the deposited data

How the results depend on the processing

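The counts of proteasome genes past the threshold were the same in 390 repeats and differed in 1, over 10 other settings and 18 fits that each left out 1 array. The exception was fish/fungal oil against lard averaged over genotypes, where leaving out single arrays gave counts of 0 to 1; the count of 1 is Psmb9 without the second control pool on fish/fungal oil, and the cause was not tested. The count for the averaged knockout effect stayed at 1 (Psmd8) when single arrays were left out, and those for the other comparisons at 0. Psmd8 passed in all 10 other settings, with log2 changes of 0.20 to 0.23 and adjusted p of 0.0101 to 0.0274 (limma), and in all 18 fits that left out an array, with 0.21 to 0.25 and 0.00824 to 0.0272. Several of the 10 settings could not move its log2 change. It has 1 probe set, and the averaged effect uses all 6 groups. With the replicate number as a block, Psmd8 had 0.23 (adjusted p = 0.0110) and the count was 1; the block changed no call. No change past the threshold reversed. Of 46 named changes, 17 had the other sign in at least 1 setting; none of these passed the threshold, their reported sizes were at most 0.09, and with the other sign they lay between -0.06 and 0.07. Averaging a gene's probe sets moved 3 values: Psma1 to -0.06 in the averaged knockout effect, and Psmc2 to -0.03 and Psmc3ip to -0.02 on fish/fungal oil against lard. The median of all genes shifted by at most 0.03 in any setting. With 3 pools per group, changes within 1 diet carry wider errors than averages, and a p above the threshold does not show that groups are alike.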
